A study of Mus musculus with 6 samples.

Results

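The genes described here encode metallothioneins, the metal sensor that controls them, and carriers that move zinc or manganese across membranes. They were taken by name from the probe sets that the platform annotation assigns to a single gene, and all 10 were measured, by 1 probe set each, among 19661 genes in all. Probe sets were to be chosen by their mean level over all arrays where a gene had several, and no such choice arose. The set was drawn up knowing that Mt2, Mt1 and Slc30a10 were among the genes with the largest decreases, so the differences of these 3 genes are given as a description. That they lie past the threshold set for all genes comes from the choice and supports nothing.

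The cells were megakaryocyte-erythroid progenitors, from which red cells and platelets develop, sorted from the bone marrow of B6.129 mice. The gate kept Kit-positive cells that lacked lineage markers, Sca1 and CD34 and had little FcγRII/III. Fog1+/+ mice carry intact alleles of Fog1 (gene symbol Zfpm1), a cofactor of the erythroid transcription factor GATA1, and Fog1ki/ki mice are homozygous for a knock-in whose nature the labels do not give. The study is known to use a FOG1 that cannot contact the NuRD chromatin complex, and the question is what this contact does to gene expression in these progenitors. Each genotype had 3 arrays called biological replicates, with 1 sample per array. The age, sex and number of the mice behind a sample and any treatment are not labelled, and p-values measure only the spread between these samples. The values are on the log2 scale after robust multi-array averaging (RMA), so a difference of 1 is a 2-fold ratio, and the level of 1 probe set cannot be set against that of another.

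Metallothioneins are small, cysteine-rich proteins that hold zinc and copper in the cytosol and also bind toxic metals such as cadmium. When free zinc rises, the zinc finger protein MTF1 binds metal response elements in the promoters of Mt1, Mt2 and the zinc exporter gene Slc30a1, so that buffering and export rise together. SLC30 carriers move zinc out of the cytosol, with SLC30A10 known mainly as a manganese exporter, and SLC39 (ZIP) carriers move metal into the cytosol. Of the 10 genes, Slc39a8, Slc39a10 and Slc39a14 therefore encode importers, although the set as a whole was drawn up around export. Maturing red cell precursors need zinc for many of their transcription factors, GATA1 and FOG1 among them, since these are zinc finger proteins.

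The promoters of the genes that were lower in Fog1ki/ki are shown first, with that of Slc30a1, a known MTF1 target whose genotypes overlapped, for comparison. Each line gives the 250 bases before the start site on the plus strand, 5′ to 3′, from the RefSeq promoter table on GRCm38.p6, and capitals mark the letters TGCACNC or TGCGCNC, the core of the metal response element, on either strand. Mt2 lies at chr8:94172368-94172617, Mt1 at chr8:94178839-94179088, Slc30a10 at chr1:185454598-185454847 and Slc30a1 at chr1:191906531-191906780.
Mt2: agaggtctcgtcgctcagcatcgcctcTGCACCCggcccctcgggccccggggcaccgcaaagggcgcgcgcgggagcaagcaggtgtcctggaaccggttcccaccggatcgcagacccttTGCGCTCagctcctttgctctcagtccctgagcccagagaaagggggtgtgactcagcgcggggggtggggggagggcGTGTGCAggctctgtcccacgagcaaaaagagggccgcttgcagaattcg
Mt1: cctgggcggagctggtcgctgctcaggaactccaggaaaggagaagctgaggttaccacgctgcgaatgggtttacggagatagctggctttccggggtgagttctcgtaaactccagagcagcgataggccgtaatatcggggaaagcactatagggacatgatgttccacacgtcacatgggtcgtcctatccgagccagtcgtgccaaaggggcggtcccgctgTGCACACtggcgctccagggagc
Slc30a10: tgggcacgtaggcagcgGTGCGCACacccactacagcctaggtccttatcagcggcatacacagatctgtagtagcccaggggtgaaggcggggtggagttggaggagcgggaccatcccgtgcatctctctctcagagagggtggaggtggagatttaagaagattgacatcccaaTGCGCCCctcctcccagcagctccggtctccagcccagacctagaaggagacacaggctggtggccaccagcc
Slc30a1: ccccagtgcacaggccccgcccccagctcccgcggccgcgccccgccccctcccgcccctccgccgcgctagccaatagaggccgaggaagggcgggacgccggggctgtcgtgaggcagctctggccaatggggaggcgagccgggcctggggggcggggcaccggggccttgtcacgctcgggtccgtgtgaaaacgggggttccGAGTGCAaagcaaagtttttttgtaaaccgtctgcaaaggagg

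Searched over the full 300-base windows of the table, which run from 250 bases before the start to 50 after it, Mt2 held 4 such matches, Mt1 and Slc30a10 held 3 each and Slc30a1 held 2. In Mt2 the matches began at -223, -128 and -50 and, after the start site, at 5. Those in Mt1 began at -23 and, after the annotated start of this window, at 3 and 21. Slc30a10 had an overlapping pair on opposite strands at -233 and -232, which share most of their letters, and another match at -73. Slc30a1 had matches at -43 and 31. Of all 32851 windows, 25.7% held at least 1 match, 7.11% at least 2 and 1.97% at least 3.

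The other members had fewer. Mt3, Mt4 and the second window of Slc39a8 held 1 match each, and Mtf1, the first window of Slc39a8 and both windows of Slc39a10 held none of these letters. Slc39a14 is named only. The letters GATA after an adenine or thymine and before an adenine or guanine, which GATA factors bind, were found on either strand once in Mt1 (at -172), Slc30a10 (-205), 1 window of Slc39a8 (-30) and 1 window of Slc39a10 (-111), and in 29.8% of all windows. These are matches of letters in a short window and not measured sites. The start site of the Mt1 window lies 206 bases inside the RefSeq gene and that of the Slc30a1 window 84 bases inside. Another start of either gene, before or after this one, would bring other bases into view. The counts and positions hold only for these windows, and the start that these cells use was not measured.

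**Figure D1:**
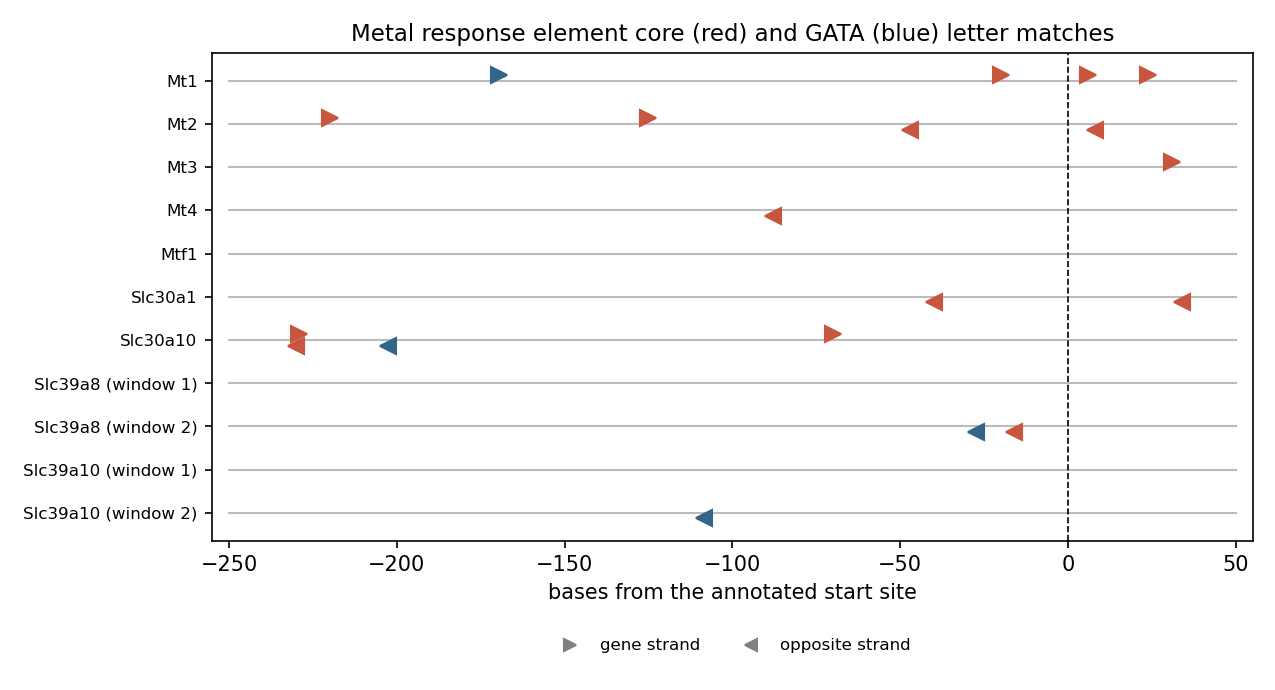
Positions of letter matches in the promoter windows, in bases from the annotated start site (dashed line), for the 9 genes with a window; red marks the metal response element core, blue the GATA letters, and the direction of the arrowhead the strand. Mt2 holds 4 red marks and no blue one, and the rows of Mtf1 and of the first windows of Slc39a8 and Slc39a10 are empty.

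Mt2, 1 of the pair of metallothioneins that most tissues make, had the lowest difference of the set. Its values were 11.39, 11.09 and 11.22 in Fog1+/+ replicates 1 to 3 and 9.51, 8.88 and 8.33 in Fog1ki/ki replicates 1 to 3, the order used for every gene. Every Fog1ki/ki array lay below every Fog1+/+ array, by 1.58 or more, and the Fog1ki/ki arrays were the more widely spread (SD 0.59 against 0.15, n = 3 each). The log2 difference was -2.33 (SE 0.25), a level 5.02-fold lower in Fog1ki/ki, and among all genes tested only that of Galnt7, with the same value, was as low.

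Mt1, the adjoining gene and the other widely made metallothionein, measured 11.15, 10.84 and 11.10 in Fog1+/+ and 9.93, 9.67 and 9.90 in Fog1ki/ki. The groups did not overlap, and both were narrow (SD 0.17 and 0.14). The log2 difference was -1.20 (SE 0.12), a 2.29-fold lower level. The 2 genes kept nearly the same distance in all Fog1+/+ arrays, where Mt2 minus Mt1 was 0.24, 0.25 and 0.12. In Fog1ki/ki that distance was -0.42, -0.79 and -1.57. Replicate 3 thus had the lowest Mt2 of the Fog1ki/ki arrays while its Mt1 lay within 0.03 of replicate 1. Whether probes of either gene also bind the transcript of the other was not tested.

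Mt3, known from brain, and Mt4, known from stratified epithelia, did not follow. Mt3 measured 7.04, 7.04 and 7.20 in Fog1+/+ and 7.02, 7.29 and 7.41 in Fog1ki/ki, so that the groups overlapped, with a log2 difference of 0.15 (95% interval -0.12 to 0.42, limma adjusted p = 0.766). Mt4 measured 5.03, 5.05 and 5.24 in Fog1+/+ and 4.84, 5.05 and 5.17 in Fog1ki/ki, a difference of -0.09 (95% interval -0.35 to 0.17, limma adjusted p = 0.878). All Mt4 values lay close to the lower quartiles of the arrays (4.81 to 4.92), where RMA compresses differences, and whether they rise above background was not tested.

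**Figure D2:**
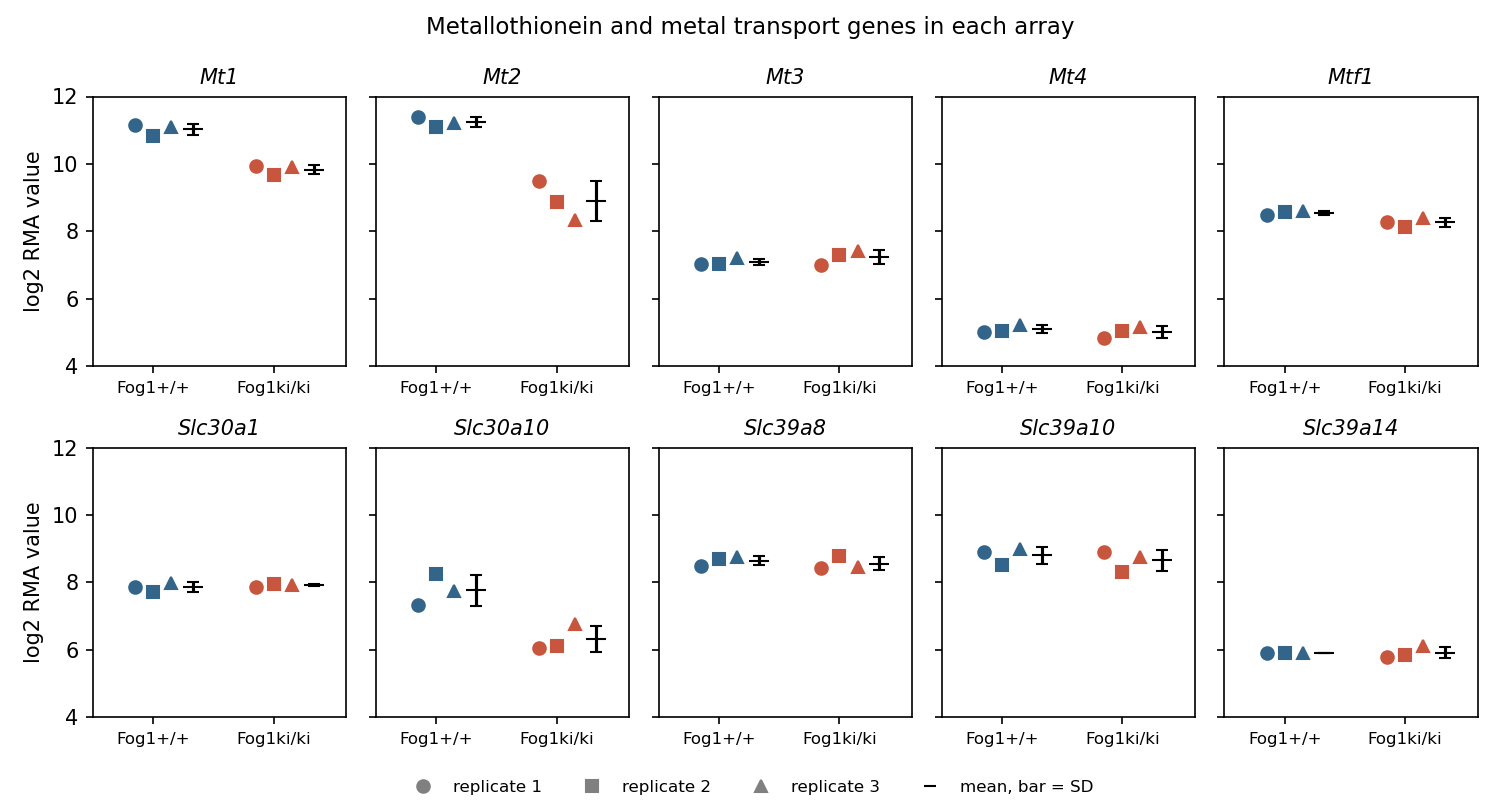
Log2 RMA value (vertical axis) of each of the 10 genes in each array, by genotype, with a symbol for each replicate and the mean ± SD (n = 3) in black beside them. Mt1, Mt2 and Slc30a10 are lower in all Fog1ki/ki arrays, Mtf1 is lower by a small margin, and the other 6 genes overlap.

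Mtf1, the sensor itself, had slightly lower values in Fog1ki/ki and did not pass the test. It measured 8.48, 8.57 and 8.60 in Fog1+/+ and 8.27, 8.12 and 8.41 in Fog1ki/ki. The arrays did not overlap, but the nearest pair lay only 0.07 apart. The log2 difference was -0.28 (95% interval -0.52 to -0.05, limma adjusted p = 0.389 over all genes).

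The exporters differed from each other. Slc30a10 measured 7.32, 8.24 and 7.74 in Fog1+/+ and 6.07, 6.12 and 6.76 in Fog1ki/ki. The groups did not overlap, and both were wide (SD 0.46 and 0.38), with replicate 2 the highest of Fog1+/+ and replicate 3 the highest of Fog1ki/ki. The log2 difference was -1.45 (SE 0.25), a 2.73-fold lower level. Slc30a1, the zinc exporter of the plasma membrane, measured 7.88, 7.71 and 7.99 in Fog1+/+ and 7.88, 7.96 and 7.93 in Fog1ki/ki. These groups overlapped throughout, and the difference was 0.06 (95% interval -0.16 to 0.29, limma adjusted p = 0.899), an interval whose lower end corresponds to a decrease far smaller than that of Mt1 or Slc30a10.

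None of the 3 importers passed (0 in limma, 0 at an unadjusted p under 0.05), and their groups overlapped. Slc39a8, which imports zinc and manganese, measured 8.49, 8.70 and 8.76 in Fog1+/+ and 8.42, 8.79 and 8.47 in Fog1ki/ki, a log2 difference of -0.09 (95% interval -0.38 to 0.20, limma adjusted p = 0.883). Slc39a10, a zinc importer of early erythroid cells, measured 8.90, 8.52 and 8.98 against 8.90, 8.30 and 8.76, a difference of -0.15 (95% interval -0.54 to 0.25, limma adjusted p = 0.857). Replicate 2 was the lowest array of both genotypes in this gene. Slc39a14, a carrier of manganese, zinc and iron, measured 5.91, 5.90 and 5.92 against 5.80, 5.84 and 6.11, a difference of 0.01 (95% interval -0.23 to 0.25, limma adjusted p = 0.991). Its values lay near the array medians (6.02 to 6.15), and the direction of so small a difference turned to -0.04 with quantile normalization repeated and to -0.05 with arrays centred on their medians.

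Counted together, the 3 genes that prompted the set (Mt1, Mt2 and Slc30a10) lay past the limma threshold of an adjusted p under 0.05, all lower, and none of the other 7 did (0 in limma, with Mtf1 at an unadjusted p under 0.05), where 0.397% of all genes were called lower and 0.773% in either direction. Nothing is read from this share. In 4 of the 10 the genotypes did not overlap, with Fog1ki/ki lower in all 4 and higher in 0. Over all genes 14.8% did not overlap, 6.53% with Fog1ki/ki lower and 8.31% with it higher. Of all 19661 genes, 981 lay higher and 901 lay lower at an unadjusted limma p under 0.05. Differences were above 0 in 11075 genes and below 0 in 8586. Counts of the gene lists below are to be read beside these. The median log2 difference of the 10 genes was -0.12, against 0.02 over all genes tested. The 4 genes without overlap are Mtf1 and the 3 genes that prompted the set, and the median includes those 3. Nothing is read from that count or from the median either. Slc30a10 was not past that threshold when replicate 2 or 3 of Fog1+/+, or replicate 1 or 2 of Fog1ki/ki, was left out, with a log2 difference of -1.67 to -1.21 as each array was left out in turn.

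Replicate 3 of each genotype had low Y-linked values (means of 4.16 and 4.14 over Eif2s3y, Uty and Kdm5d, against at least 8.79 elsewhere), and Fog1ki/ki replicate 2 had high Xist (9.13) beside high Y-linked values. Without both replicates 3 the differences of Mt1, Mt2 and Slc30a10 were -1.20, -2.05 and -1.69, and these 3 were not past the limma threshold, with 24 genes called in all. The log2 value of the targeted gene Zfpm1 differed by 0.05 (limma adjusted p = 0.948), which checks no genotype label, since the nature of the knock-in is not labelled. Of 4 measured genes of the sorting gate 0 were called (limma; 1 lay higher and 1 lay lower at unadjusted p-values under 0.05). Cd34 was dim (4.34 to 4.56), while Kit at -0.38 (limma adjusted p = 0.232) and Fcgr2b at 0.29 (limma adjusted p = 0.248) each separated the genotypes.

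None of the 13 measured erythroid markers had a mean level below the median of all genes. Car1 and Tfrc were among the brightest, while Slc4a1 (6.49 to 7.14) and Alas2 (6.86 to 7.23) lay nearer that median. These are places of probe sets, which do not give the order of transcript amounts. Of 13 measured, 12 had differences below 0, 2 lay lower at an unadjusted p under 0.05 and 1 was called lower by limma (Xk, -0.60), a call lost in 11 of 16 alternatives, among them leaving out any single array (limma adjusted p up to 0.424). Their mean level was 9.65 to 9.71 in Fog1+/+ and 9.46 to 9.56 in Fog1ki/ki. Of 13 measured mast cell markers 12 had differences above 0 and 4 were called higher by limma (Ms4a2, Gata2, Cd63 and Lat), and the mean level of the list was 5.96 to 6.09 against 6.58 to 6.97. The call of Ms4a2 was kept in 16 of 16 alternatives. That of Gata2 was lost in 5, among them leaving out any Fog1+/+ array or Fog1ki/ki replicate 3 (limma adjusted p up to 0.217). That of Cd63 was lost in 7, among them leaving out Fog1+/+ replicate 3 or any Fog1ki/ki array (up to 0.251), and that of Lat in 10, among them leaving out any single array (up to 0.280). Further markers of this list were picked out after their values were seen. Fcer1a, a chain of the IgE receptor, measured 4.64, 4.61 and 4.65 in Fog1+/+ and 7.46, 6.93 and 5.24 in Fog1ki/ki, without overlap, and did not pass (1.91, limma adjusted p = 0.147). It passed in 2 of 16 alternatives, among them leaving out Fog1ki/ki replicate 3, the lowest Fog1ki/ki array (2.56, limma adjusted p = 6.0e-04). In the other 14 it did not pass (limma adjusted p up to 0.396). With each array left out in turn its difference ran from 1.45 to 2.56. Among granule protease genes Cma1 was higher in every Fog1ki/ki array by a small margin (0.21, limma adjusted p = 0.486). Cpa3 (0.53, limma adjusted p = 0.648) and Mcpt4 (0.21, limma adjusted p = 0.626) overlapped, with Cpa3 at 5.65 in Fog1ki/ki replicate 1 and at most 4.56 elsewhere. Of 64 markers on 7 other cell type lists, megakaryocytes among them, 0 were called by limma (8 lay higher and 1 lay lower at unadjusted p-values under 0.05). Of 10 megakaryocyte markers 9 had differences above 0 and 1 below. Pf4 (0.97, limma adjusted p = 0.266) and Itga2b (0.31, limma adjusted p = 0.367) were higher in every Fog1ki/ki array. Of 8 basophil and eosinophil markers 5 lay above 0 and 3 below, and 3 were higher without overlap. The part of these shifts in the metallothionein and Slc30a10 differences was not tested, and in sorted bulk samples fewer cells of a type and less RNA per cell cannot be told apart.

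**Figure D3:**
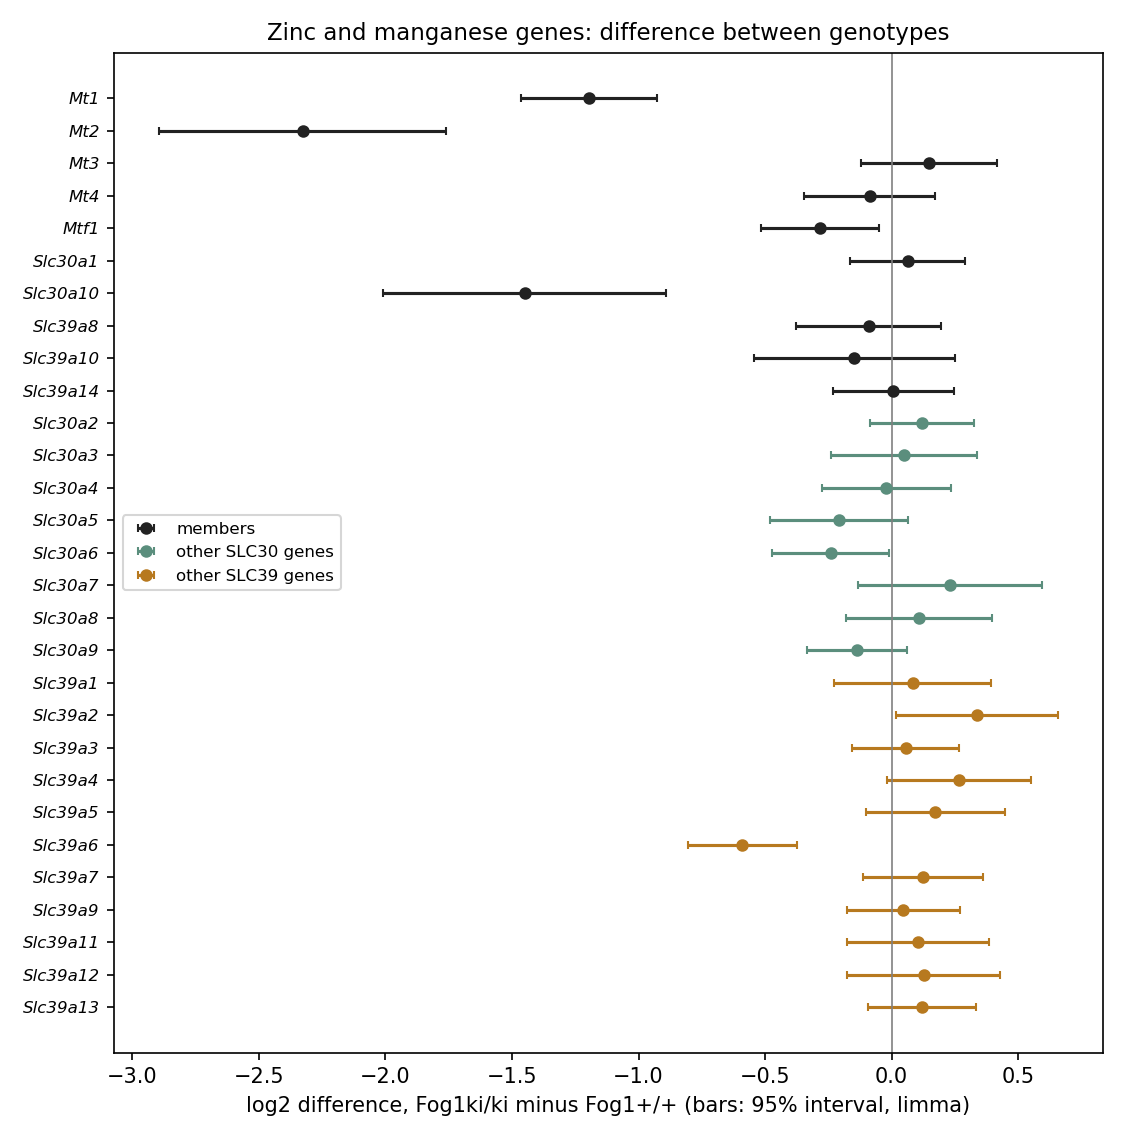
Log2 difference between genotypes (horizontal axis, Fog1ki/ki minus Fog1+/+, bars are 95% intervals from limma) for the 10 genes and for the other 8 SLC30 and 11 SLC39 genes. Mt2, Slc30a10 and Mt1 lie at -2.33, -1.45 and -1.20, Slc39a6 at -0.59, and the others between -0.28 and 0.34.

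The rest of the zinc carriers mostly did not follow Slc30a10. Of the other 8 SLC30 genes, 0 were called (limma; 0 lay higher and 1 lay lower at unadjusted p-values under 0.05), with a median log2 difference of 0.02. Slc30a6 (-0.24, limma adjusted p = 0.503) and Slc30a5 (-0.21, limma adjusted p = 0.655), which carry zinc into the secretory pathway, had the smallest p. Of the other 11 SLC39 genes 1 fell, 0 rose and 10 did not pass (limma; 1 lay higher and 1 lay lower at unadjusted p-values under 0.05). Differences were above 0 in 10 of the 11, with a median of 0.12, and Slc39a2 stood highest (0.34, limma adjusted p = 0.492), picked out after its value was seen.

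The gene that fell was Slc39a6, a zinc importer that pairs with SLC39A10. It measured 7.76, 7.57 and 7.57 in Fog1+/+ and 7.10, 7.01 and 7.02 in Fog1ki/ki, with no overlap and little spread, which gave -0.59 on the log2 scale (SE 0.09; limma, adjusted p = 0.0305). The call of Slc39a6 was lost in 8 of 16 alternatives, among them leaving out any Fog1+/+ array or replicate 2 or 3 of Fog1ki/ki (limma, adjusted p 0.0889 to 0.132) and a term for the arrays with low Y-linked values (0.0532), while its difference stayed between -0.64 and -0.53.

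Among 27 measured genes for manganese, iron, copper and magnesium transport, 2 fell, 0 rose and 25 did not pass (limma; 1 lay higher and 5 lay lower at unadjusted p-values under 0.05), with a median log2 difference of -0.12. Differences were below 0 in 17 and above 0 in 10. Without overlap 7 were lower and 2 higher, where the shares over all genes were 6.53% and 8.31%. Atp2c1, the pump that moves manganese and calcium into the Golgi, measured 9.56, 9.61 and 9.41 in Fog1+/+ and 8.89, 8.72 and 9.04 in Fog1ki/ki, a difference of -0.64 (SE 0.11, limma adjusted p = 0.0397). Cox17, which hands copper to cytochrome oxidase, measured 12.08, 12.14 and 12.14 against 11.41, 11.58 and 11.55, a difference of -0.61 (SE 0.09, limma adjusted p = 0.0210). Both genes separated the genotypes without overlap. The Atp2c1 call was lost in 9 of 16 alternatives (limma adjusted p up to 0.171) and the Cox17 call in 7 of 16 (up to 0.274), both of them when any Fog1+/+ array or Fog1ki/ki replicate 2 was left out, Atp2c1 also without Fog1ki/ki replicate 1 and Cox17 also without replicate 3, with differences that stayed between -0.78 and -0.56 and between -0.66 and -0.53. Slc31a1, the copper importer of the plasma membrane, had the largest difference of this list at -0.66 (SE 0.16) and did not pass (limma adjusted p = 0.148). Its groups did not overlap, and it was picked out after its value was seen.

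Other genes that respond to metals or that share inducers with metallothioneins were not called. Of 17 metal and oxidative stress response genes, 0 passed (limma; 0 lay higher and 2 lay lower at unadjusted p-values under 0.05), with a median of -0.09. Nfe2l2, the regulator of the antioxidant response, stood at -0.40 on the log2 scale (limma adjusted p = 0.133) and its target Nqo1 at -0.24 (limma adjusted p = 0.437). These 2 were lower without overlap, and 0 genes of the list were higher without overlap. Hmox1, the haem oxygenase that metals also induce, stood at -0.08 (SE 0.12). The lowest difference of this list was that of Hspa1a (-0.58, SE 0.27), whose groups overlapped. Of 12 glucocorticoid-induced genes, listed because glucocorticoids also induce Mt1 and Mt2, 0 passed (limma; 0 lay higher and 2 lay lower at unadjusted p-values under 0.05). Klf9 stood at -0.34 (limma adjusted p = 0.222), Cebpd at -0.39 (limma adjusted p = 0.303) and Fkbp5 at -0.13 (SE 0.10). These 3 were lower without overlap and 1 other gene was higher without overlap, where the shares over all genes were 6.53% and 8.31%. Differences were below 0 in 8 of the 12 and above 0 in 4, with a median of -0.085. Of 6 genes for manganese enzymes, 0 passed (limma; 0 at an unadjusted p under 0.05 in either direction), with Sod2, the mitochondrial superoxide dismutase, at -0.19 and glutamine synthetase, Glul, at 0.23.

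The 4 metallothionein genes lie next to each other on chromosome 8, in the order Mt4, Mt3, Mt2, Mt1, and of these Mt2 and Mt1 separated the genotypes while Mt4 and Mt3 overlapped. Of the 10 nearest tested genes, 5 on each side, 0 were called (limma; 1 at an unadjusted p under 0.05), and their log2 differences lay between -0.31 and 0.23. The gene next to Mt1, Nup93, a nuclear pore subunit, had the lowest of these (-0.31, SE 0.11, limma adjusted p = 0.364), with no overlap between genotypes. On the other side Bbs2 stood at 0.23 and Ogfod1 at -0.25. Zfpm1 lies on the same chromosome, with 251 tested genes between it and the metallothionein genes. Of these 251, 3 were called (1.2%), and of the 947 tested genes of the chromosome 12 were called (1.27%, 8 of them lower), against 0.773% of all genes. The 12 and the 8 include Mt1 and Mt2, which were chosen for their decreases, so nothing is read from the share of the chromosome. The median log2 difference was 0.02 on the chromosome and 0.02 over all genes tested, a measure that a few strongly lowered genes would hardly move. Effects of the knock-in and of DNA that is inherited with it cannot be told apart here.

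**Figure D4:**
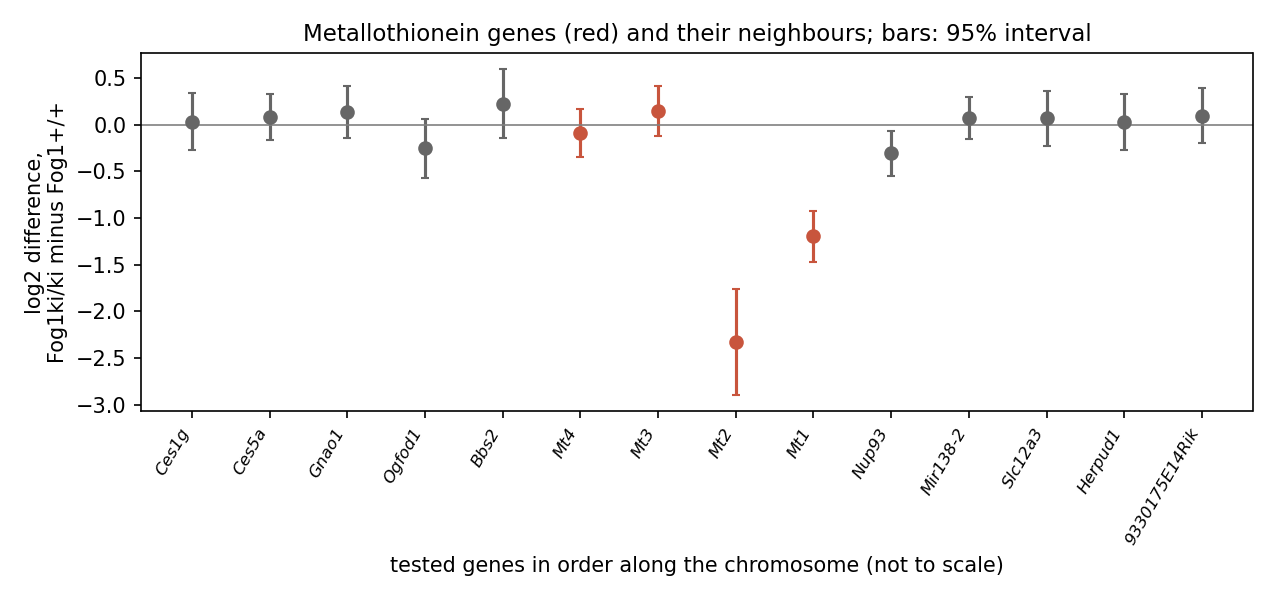
Log2 difference between genotypes (vertical axis, Fog1ki/ki minus Fog1+/+, bars are 95% intervals from limma) for the 4 metallothionein genes (red) and the 5 tested genes on each side (grey), in order along the chromosome. Mt2 and Mt1 lie at -2.33 and -1.20, and the other 12 genes between -0.31 and 0.23.

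The genes nearest in pattern were found from the root mean square difference between log2 profiles over the 6 arrays, each profile centred on its own mean, a measure that reads size as well as shape. Nearest to Mt2 were Anxa5, a phospholipid-binding protein (0.33), the O-glycosylation enzyme gene Galnt7 (0.41), Sccpdh (0.43), Prelid2 (0.48) and the insulin receptor adaptor gene Grb10 (0.49). Mt1 came 21st at 0.66 and Slc30a10 41st at 0.78, so the nearest profiles were those of other genes with decreases of a like size, with log2 differences of -2.33 to -1.58. Nearest to Slc30a10 were Clec4d, a C-type lectin (0.28), Trim2 (0.28), Sh2d4a (0.29), Mfhas1 (0.31) and Rab30 (0.34), with Mt1 again 21st at 0.43. Of these, Clec4d and Trim2 had log2 differences of -1.03 and -1.13. Galnt7, Sh2d4a (-1.67) and Mfhas1 (-1.69), each called lower by limma, lie on chromosome 8, as do Mt1, Mt2 and Zfpm1. They are thus among the 8 genes of that chromosome called lower. The other nearest genes lie on other chromosomes. The part of DNA inherited with the knock-in in these decreases was not tested. All comparisons share the same 6 arrays, and these distances are a description of them.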

How the data were processed

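Each of 6 sorted samples was measured on its own 1-colour array after RNA amplification and biotin labelling, per the labels' protocols. The deposited values are log2 expression values made by the authors with RMA, per the submitters' processing notes. The version of RMA is not stated there, and the scale was recognised from the values themselves. The number of arrays limits the precision.

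The platform annotation, which can be old, gave 20777 of 25668 probe sets a single gene symbol, 232 several and 4659 none. By Entrez identifier 20696 of them matched RefSeq genes on GRCm38.p6, which changed 0 symbols and gave gene order. Where a gene had several probe sets, the brightest on average was taken. The genotypes were fitted over all 19661 genes in limma 3.58.1 under R 4.3.3, with genotype as the single term of a two-sided test, and called at a Benjamini-Hochberg adjusted p under 0.05. With 3 arrays on each side an exact permutation p could not fall under 0.1, and none was computed. Members, lists and alternatives were chosen with earlier results of these data known. Named genes were the members, Zfpm1, called list members (at most 4) or else the 2 with the smallest p, 5 tested neighbours on each side of the metallothionein genes and the 5 nearest profiles. Some further list members were named outside this rule, Hmox1, Hspa1a and Fkbp5 among them. Most marker lists are given as counts only. In simulated data limma found 21, 43, 47 and 50 of 50 genes shifted by 0.5, 1, 1.5 and 2 (log2), and 8 of 19461 unshifted ones. The simulated noise was normal and independent, with the residual SDs of these data shuffled among genes. Differences between arrays in quality or in sex-linked values were not simulated, so these figures need not hold for these arrays. Alternatives covered normalization, centring, dim genes, probe sets, variance models, sex-linked values, thresholds and single arrays left out. Tables and figures used Python 3.11.15, pandas 2.3.3 and matplotlib 3.10.9.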

Additional observations from a re-analysis of the deposited data

How the results depend on the processing

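Over the 16 alternatives, Mt1 kept a log2 difference between -1.29 and -1.11 and Mt2 one between -2.63 and -2.04, and each lost its call only without both arrays with low Y-linked values. Without those arrays 24 genes were called, and 0 of the 10 metallothionein and metal transport genes, against 152 and 3 over all arrays. At a threshold of 0.01, 55 genes were called. With each array left out in turn 60 to 134 genes and 2 to 3 of the 10 were called: 60, 83 and 60 genes without Fog1+/+ replicates 1, 2 and 3 and 82 without Fog1ki/ki replicate 2. With arrays centred on their medians 43 genes were higher and 73 lower, against 74 higher and 78 lower as deposited. The labels do not say whether replicate numbers pair the samples. Correlations of deviations over 19661 genes were 0.0683, -0.00755 and 0.128 between equal numbers and -0.131 to 0.0584 between unequal ones. Both replicates 3 had low Y-linked values, so these correlations do not settle the pairing. With the replicate block 133 genes and 3 of the 10 were called, with Slc39a6, Atp2c1 and Cox17 not past the threshold. Of 874 values of the 55 genes followed through the alternatives, 765 kept direction and side of the threshold, 80 lost the call, 6 gained one and 23 changed sign, all 23 of differences near 0 that were not called. Slc39a14 changed sign with quantile normalization repeated (-0.0433), with arrays centred (-0.0467) and without the arrays with low Y-linked values (-0.085), and Slc39a8 did so in the last setting (0.01). Centring also turned Zfpm1 (-0.0067), Ces1g (-0.0233) and Herpud1 (-0.0233), quantile normalization Ces1g (-0.0078), and array weights Ces1g (-0.0353) and Herpud1 (-0.003). With each array left out in turn the differences ran from -0.1617 to 0.0033 in Mt4, -0.0117 to 0.1283 in Slc30a1, -0.2867 to 0.03 in Slc39a10 and -0.09 to 0.065 in Slc39a14. They ran from -0.0583 to 0.1567 in Zfpm1, -0.0867 to 0.1133 in Ces1g, -0.0533 to 0.1917 in Slc12a3, -0.0983 to 0.1183 in Herpud1 and -0.0283 to 0.2017 in 9330175E14Rik. The causes of these changes were not tested.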
